A study of Homo sapiens with 19 samples.

Results

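The cytosolic ribosome is built from ribosomal RNA and ribosomal proteins, and the genes that code for the proteins (RPL for the large subunit, RPS for the small subunit, RPLP for the stalk) are among the most heavily transcribed in a dividing cell. Their mRNAs are short, spliced constitutively for the most part, and usually begin with a C followed by a run of pyrimidines, the 5′ terminal oligopyrimidine (TOP) tract, through which mTOR signalling and the RNA-binding protein LARP1 control their translation and stability. Many of their introns carry small nucleolar RNAs. The genes described here were chosen by symbol: RPL or RPS and a number, with RPLP0, RPLP1, RPLP2 and RPSA, and without symbols of pseudogenes. This gave 79 of the 11822 genes with a cassette exon (SE) or retained intron (RI) event in the deposited splicing tables, 47 of the large and 32 of the small subunit. Of these, 77 had an SE event and 27 an RI event, and 2 had RI events only.

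The cells were HMLE/Twist-ER, immortalised human mammary epithelial cells that carry the transcription factor Twist fused to a tamoxifen-responsive receptor domain. Untreated cells are epithelial (EPI), and cells taken through the epithelial-mesenchymal transition (EMT) with 20 nM tamoxifen are mesenchymal (MES). In each state, lentivirally transduced lines expressed a non-specific shRNA (control) or an shRNA against AKAP8, an RNA-binding splicing regulator (knockdown), so all groups carried an shRNA vector and the Twist-ER transgene, and the MES groups also differed from the EPI groups in tamoxifen itself. Poly(A) RNA-seq covered 3 EPI controls, 3 EPI knockdowns, 3 MES controls and 2 MES knockdowns, and AKAP8 eCLIP (crosslinking and immunoprecipitation over a size-matched input) covered 2 replicates in each state.

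A gene's level was the sum of its SE junction reads in the events shared by the 3 comparisons, divided by the library's size factor (scaled reads). It existed for 68 of the 79 genes, and all 68 passed the filter on low values. The other 11, among them RPL22L1, RPL26L1, RPL6, RPS23, RPS26, RPS27L and RPS4X, had no SE event common to the 3 comparisons and were not given a level. The libraries held 21198882 to 28261544 junction reads, and 9.13% to 14.1% of them came from ribosomal protein genes. AKAP8 fell to between 37.1% and 46.9% of the control mean in the EPI knockdown libraries and to 39.3% and 44.3% in the 2 MES knockdown libraries. Its log2 fold change was -1.20 (SE 0.25, limma adjusted p = 0.0664, or 0.00962 with libraries paired by their place in the table) in EPI and -1.20 (SE 0.28, limma adjusted p = 0.0322) in MES. The MES value misses the threshold without EPI control 1 (adjusted p = 0.0562), MES control 1 (0.0907), MES control 3 (0.063), MES knockdown 1 (0.177) or MES knockdown 2 (0.125). Of the markers with a level, all 5 epithelial ones (CDH1, ESRP1, ESRP2, OCLN, JUP) were lower and all 7 mesenchymal ones (VIM, FN1, CDH11, ZEB1, SPARC, COL1A1, POSTN) higher in MES than in EPI controls with an adjusted p under 0.05. Of the 5 cycling markers with a level MCM3 was higher in MES controls and the others did not pass, the only immune marker with one, CD68, was lower, and no endothelial marker had one. No marker of any list passed an adjusted p of 0.05 in either knockdown comparison. In bulk RNA, fewer cells of a type and less RNA per cell cannot be told apart.

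The sequences below belong to the results that follow. The first set is RPS24, whose last introns flank a 22-base exon. The exon lies at chr10:79799962-79799983 (GRCh37, plus strand), between an exon that ends at 79797062 and the last exon that starts at 79800373. It opens with the stop codon TGA (capitals in the second line), so the reading frame of an mRNA that includes it ends there. An mRNA that skips it reads 9 further bases of the last exon and stops at the TAA in capitals. Capitals in the 2 intron lines mark the AG and GT of the splice sites.

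RPS24, last 30 bases of the exon before: gcaaaggccaatgttggtgctggcaaaaag
RPS24, 22-base exon: TGAgctggagattggatcacag
RPS24, first 20 bases of the last exon: ccgaaggagTAAaggtgctg
RPS24, last 40 bases of the intron before the 22-base exon: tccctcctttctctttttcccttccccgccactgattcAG
RPS24, first 40 bases of the intron after it: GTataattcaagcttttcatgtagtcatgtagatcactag

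The intron before the exon is 2899 bases long and the one after it 389 bases. The 40 bases before the exon open with a run of C and T, 52.5% of them are G or C, and none of the 5 stretches holds the run GGG. The exon is part of 5 annotated transcripts (RPS24-201, RPS24-202, RPS24-205, RPS24-215 and RPS24-216), and RPS24-203 has a version that starts 3 bases earlier.

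The second set shows where transcription starts. Each line runs from 10 bases before to 20 bases after a RefSeq start site (GRCh38.p14), and capitals mark a TOP tract (C at the first base and then at least 4 bases that are each C or T, on the transcribed strand).

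RPS24: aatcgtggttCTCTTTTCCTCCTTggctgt
RPL13, 1 of 3 start sites: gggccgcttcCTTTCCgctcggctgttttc
RPS25: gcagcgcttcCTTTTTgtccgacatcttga
RPLP0: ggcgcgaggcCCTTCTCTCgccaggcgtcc
RPL28: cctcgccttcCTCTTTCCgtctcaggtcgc
RPL7L1: gtgcggcgccgtagctaggagcggacgcca

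A RefSeq window was found for 63 of the 79 genes, and 45 of the 63 (71.4%) had a TOP tract at a listed start site, against 5.14% of the 27305 genes with a window. RPL7L1, a paralog of RPL7 that acts in ribosome assembly, was among those without one. As a match is only a match of letters, it says nothing of where these cells start transcription. Small nucleolar RNA genes lie inside 28 of the 79 genes, 57 in all, for example 4 in RPL13A and 4 in RPL7A.

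Per junction, which allows genes to be compared, the 68 genes had a median of 8049 scaled reads against 111 for all 9212 genes with a level, and 66 of the 68 were in the top 10% of genes. RPS18, the highest by scaled reads, averaged 16521 scaled reads per junction over the 11 libraries (range 13199 to 24942). RPLP0, the stalk base, and RPS3 averaged 9557 and 9515, and RPL4 11077, and the ranges of these 3 over libraries overlapped. At the low end stood RPL34 with 4080, RPL28 with 1990, RPL7L1 with 545 and RPL39L, the paralog of RPL39 that is abundant in testis, with 251 scaled reads per junction. RPL7L1 and RPL39L are the 2 genes outside the top 10%.

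The genes moved as a block from library to library, within groups as well as between them. Relative to the mean of the 3 EPI controls, the median deviation of the 68 genes on the log2 scale was -0.01, 0.19 and -0.16 in the EPI controls themselves. It was -0.21, 0.39 and -0.22 in the EPI knockdowns, -0.13, -0.25 and -0.27 in the MES controls, and 0.29 and -0.04 in the MES knockdowns. EPI knockdown 2 and MES knockdown 1 had the highest medians, with 63 and 62 of the 68 genes above the EPI control mean. EPI control 2, with a lower median, had 66 genes above that mean. EPI knockdown 1, with 2 genes above it, and EPI knockdown 3, with 4, were of the same group as EPI knockdown 2. The median of all genes stayed between -0.01 and 0.04 in every library, as the size factors are built to hold it level.

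**Figure D1:**
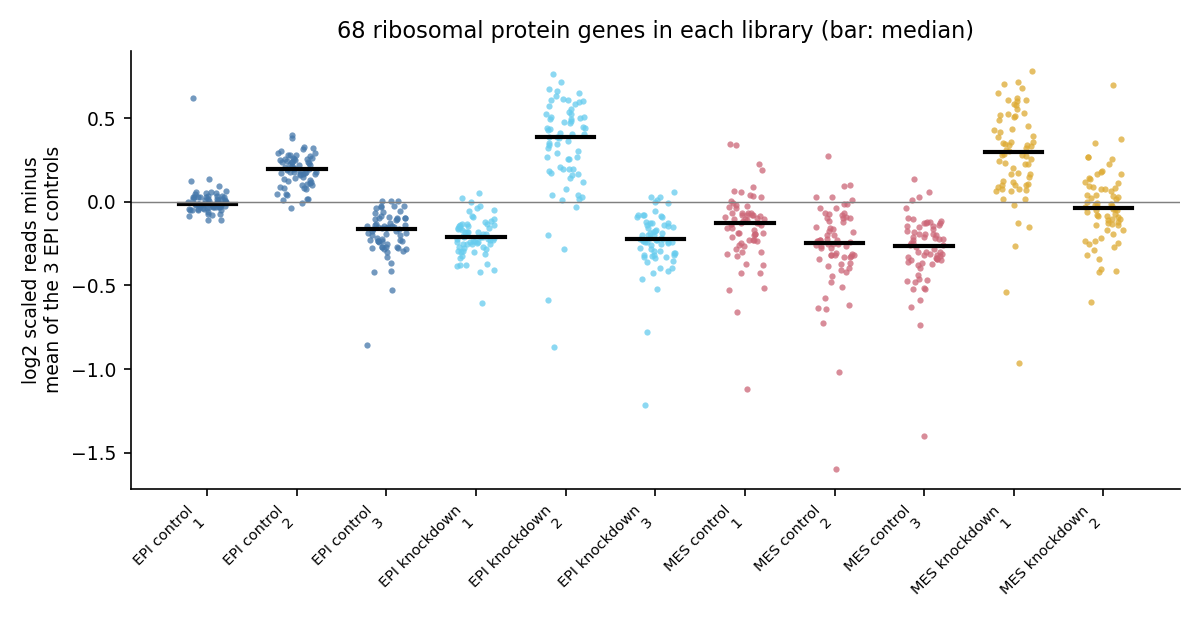
Log2 scaled reads of 68 ribosomal protein genes minus their mean in the 3 EPI controls (vertical axis), in each of the 11 libraries (horizontal axis, coloured by group). A point is a gene and the black bar is the median, which runs from -0.27 in MES control 3 to 0.39 in EPI knockdown 2.

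AKAP8 knockdown in EPI cells was compared with the control shRNA in the same state. None of the 68 ribosomal protein genes passed (adjusted p under 0.05 and an absolute log2 fold change over 1), where 0.188% of the 9019 genes tested did, and 1 of 68 was lower at an unadjusted p under 0.05 in limma (5.26% of all genes), with none higher (4.62%). The median log2 fold change was -0.03, with 26 genes above and 42 below 0, and that of all genes was -0.01. Leaving out EPI knockdown 2 gave a median of -0.23 and leaving out EPI knockdown 3 a median of 0.08, so the sign depended on which library was left in. RPL13, a large-subunit protein, had 22452, 17284 and 8088 scaled reads in the controls and 12467, 8031 and 6323 in the knockdowns. The groups overlapped, and the log2 fold change of -0.77 (SE 0.42) had an adjusted p of 0.614 in limma. With libraries paired by place, which is described with the methods, its adjusted p was 0.013, and it was the only one of the 68 genes under 0.05.

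In MES cells, 65 of the 68 genes had a positive log2 fold change after AKAP8 knockdown, with a median of 0.36, while 48.9% of all genes were positive and their median was -0.01. None of the 68 passed both cutoffs, where 2.27% of all genes did. In limma, 19 were higher and 1 lower at an unadjusted p under 0.05, against 11.1% and 10.6% of all genes. In 44 genes both knockdown libraries lay above all 3 controls and in 1, RPL7L1, both lay below, and such separation was as common as 21.8% (higher) and 23.3% (lower) of all genes. The median was 0.16 without MES knockdown 1 and 0.52 without MES knockdown 2. With size factors from total reads the median of all genes shifted to -0.14 and that of the 68 genes to 0.24, with 59 of them positive. No marker passed in the same comparison, but the 5 epithelial markers all had negative log2 differences (median -0.41), 6 of the 7 mesenchymal ones positive (median 0.44) and 4 of the 5 cycling ones negative (median -0.40), and their part in the rise was not tested.

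Among the genes with the largest separated rises were RPL13, RPL13A, RPL36 and RPL28, all of the large subunit. RPL13 had 6730, 4845 and 5555 scaled reads in the MES controls and 7519 and 23724 in the knockdowns, and its log2 difference of 1.24 (SE 0.47, limma adjusted p = 0.142) rested on MES knockdown 2. RPL13A, which is known as a translational repressor outside the ribosome too, had 63517, 54912 and 56936 in the controls and 99599 and 95904 in the knockdowns (log2 difference 0.74, SE 0.24, limma adjusted p = 0.0922). Both knockdown libraries lay well above the controls. RPL36 (log2 difference 0.64, SE 0.22) and RPL28 (0.61, SE 0.23) were separated in the same way, with limma adjusted p-values of 0.12 and 0.14.

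RPL7L1 went the other way. It had 4208, 4008 and 3384 scaled reads in the MES controls and 2763 and 2481 in the knockdowns, and fell by 0.56 on the log2 scale (SE 0.15, limma adjusted p = 0.0498), short of the cutoff on the fold. It was the only one of the 68 with an adjusted p under 0.05, which 2.1% of all genes had with a fall. In EPI cells it had 3387, 3301 and 3259 in the controls and 2804, 2728 and 2649 in the knockdowns, again without overlap, which held for 7.1% of all genes in that direction (log2 difference -0.28, SE 0.13, limma adjusted p = 0.504). The MES adjusted p exceeded 0.05 whenever any one of the MES libraries other than MES control 3 was left out, reaching 0.143 without MES control 1, 0.151 without MES control 2, 0.136 without MES knockdown 1 and 0.244 without MES knockdown 2. It was also between 0.0613 and 0.0859 without EPI control 1, 2 or 3 or EPI knockdown 1 or 3.

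The knockdown effect in MES minus that in EPI had a median of 0.39 on the log2 scale over the 68 genes, 66 of them positive, against -0.01 over all genes, of which 49.2% were positive. None passed an adjusted p of 0.05 in limma (0.0111% of all genes did) and 6 were higher at an unadjusted p under 0.05 (3.78% of all genes), so a difference between the states was not detected for any single gene. RPL13 had the largest one, 2.01 (SE 0.62, adjusted p = 0.615). The median was 0.60 without EPI knockdown 2 and 0.18 without MES knockdown 1.

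The EMT comparison set MES controls against EPI controls. Of the 68 genes, 63 were lower in MES controls, with a median log2 fold change of -0.22 against 0.01 for all genes, of which 51.1% were higher. The median was -0.13 without EPI control 2 and -0.30 without EPI control 3. One gene, RPL13, passed both cutoffs, and it was lower, as were 7.15% of all genes. RPL13 had 22452, 17284 and 8088 scaled reads in EPI controls and 6730, 4845 and 5555 in MES controls, and fell by 1.37 on the log2 scale (SE 0.42, limma adjusted p = 0.0296). All MES controls were below all EPI controls, but EPI control 3 stood nearer to the MES controls than to EPI control 1. The call was lost without EPI control 1 (adjusted p = 0.134), EPI control 2 (0.0893), MES control 1 (0.0563), MES control 2 (0.104) or MES control 3 (0.0689).

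RPS25, a small-subunit protein used in initiation from viral internal entry sites, had 93699, 100426 and 82651 scaled reads in EPI controls and 58168, 55641 and 66354 in MES controls. It fell by 0.62 (SE 0.16, limma adjusted p = 0.0151), under the cutoff on the fold and without overlap between the groups. Its adjusted p was 0.0564 without EPI control 1, 0.0635 without EPI control 2, 0.0554 without MES control 1 and 0.073 without MES control 2. RPL13A (log2 difference -0.55, SE 0.21, limma adjusted p = 0.0789) and RPL38 (-0.49, SE 0.20, adjusted p = 0.0939) were also separated. In all, 24 of the 68 were lower in MES without overlap and none higher, against 22.9% and 22.8% of all genes. In limma, 12 were lower at an unadjusted p under 0.05 (18.4% of all genes) and none higher. With size factors from total reads, the median of all genes moved to -0.10 and that of the 68 genes to -0.33, and 15 of the 68 had an adjusted p under 0.05, all lower, as had 2220 of 9018 genes in either direction. The MES knockdown and EMT comparisons share the MES controls, and the EPI knockdown and EMT comparisons share the EPI controls, so a low MES control level lowers one value as it raises the other.

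**Figure D2:**
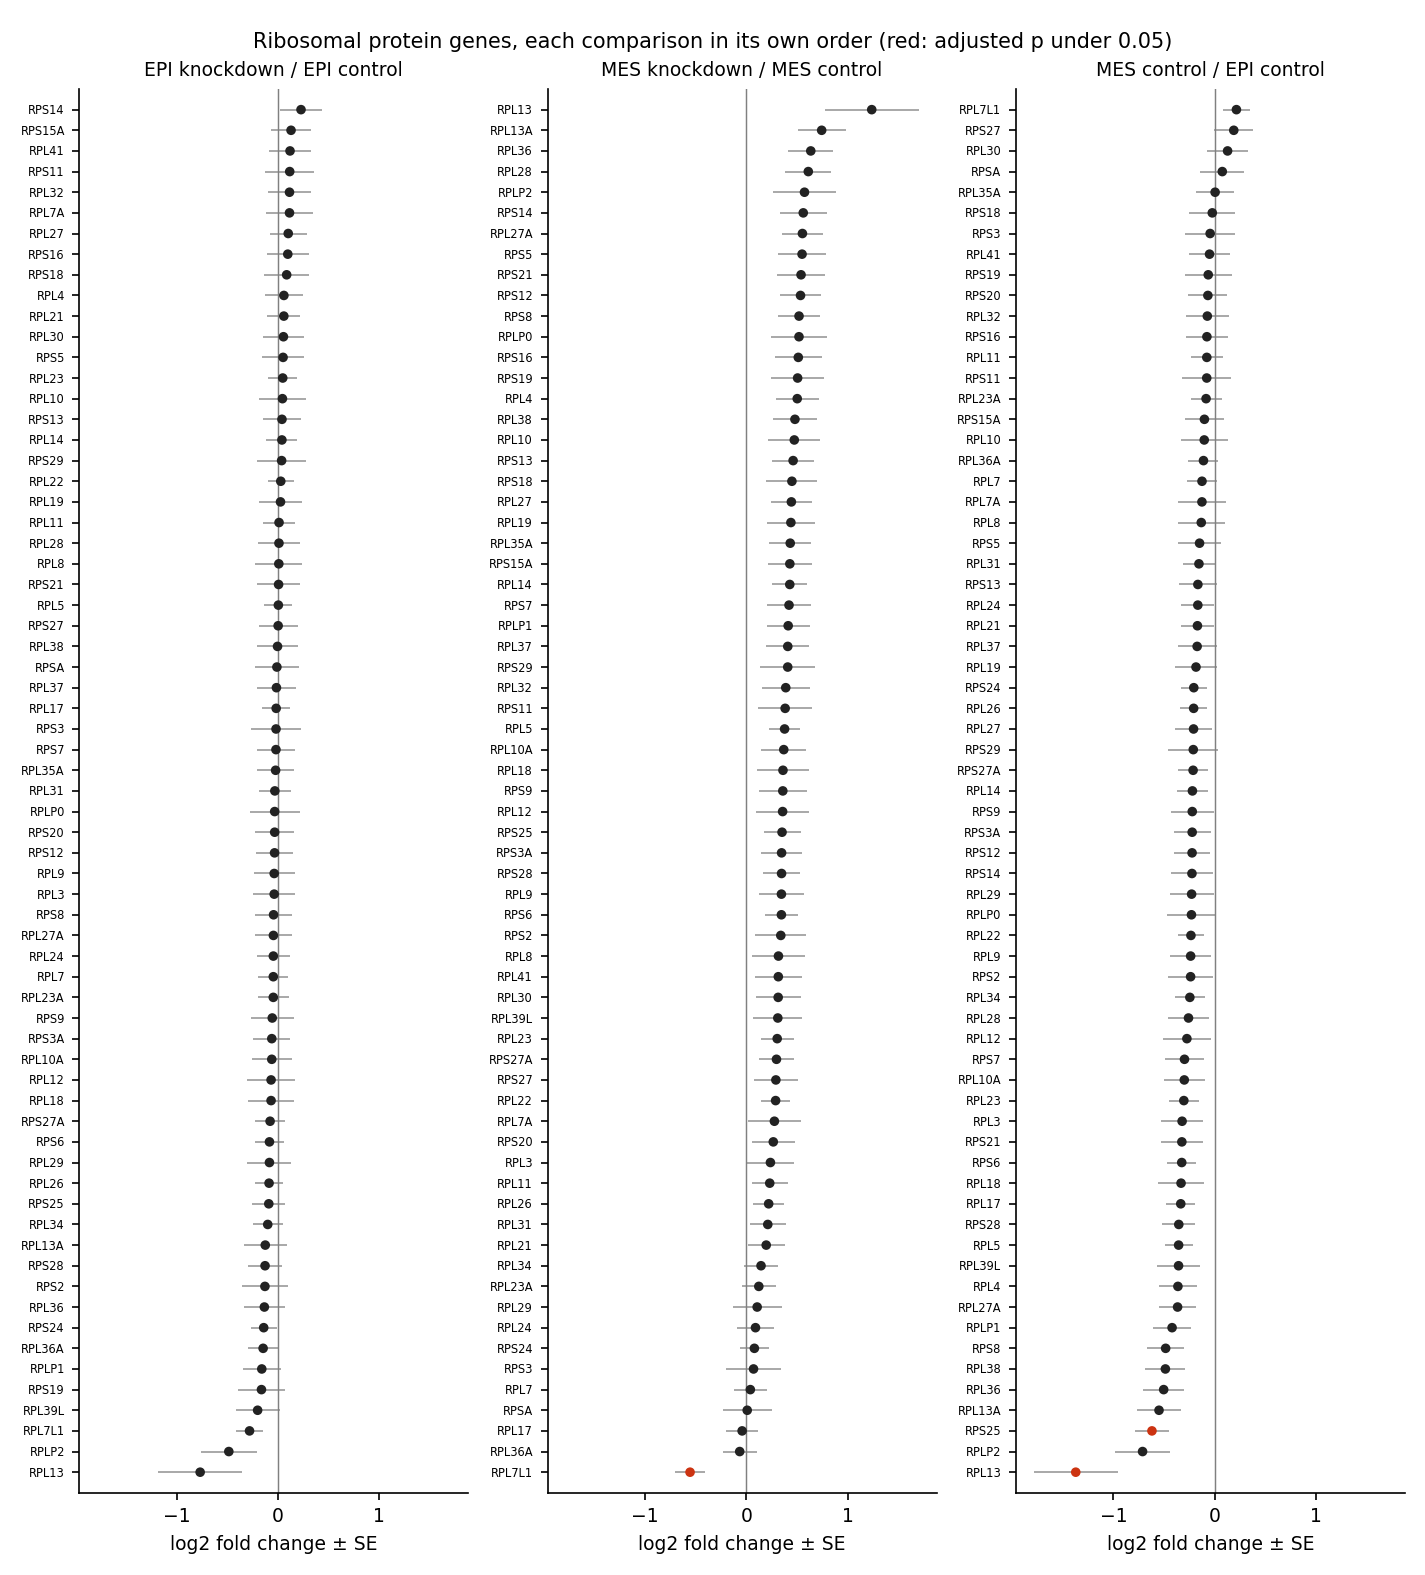
Log2 fold change (horizontal axis, bars ± SE from limma) of the ribosomal protein genes reported here in the EPI knockdown, MES knockdown and EMT comparisons, each panel in its own order of genes (vertical axis). Red marks an adjusted p under 0.05, which RPL7L1 has in MES knockdown and RPL13 and RPS25 in EMT.

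Among the stalk proteins, RPLP0, RPLP1 and RPLP2 form the arm that recruits elongation factors. RPLP0 had 146901, 180599 and 128337 scaled reads in EPI controls, 128270, 127139 and 129811 in MES controls, and 213675 and 158734 in MES knockdowns. RPLP2 had 18780, 22689 and 11944 in EPI controls, 16133, 11432 and 10029 in EPI knockdowns, 13233, 8488 and 10317 in MES controls, and 11846 and 20658 in MES knockdowns. Its highest libraries in the EPI knockdown and MES knockdown groups, EPI knockdown 1 and MES knockdown 2, were those of RPL13, not those in which most other genes were high. None of the 3 had an adjusted p under 0.05 in limma in any comparison, though in EMT RPLP1 did with size factors from total reads (-0.53, SE 0.15, adjusted p = 0.0223) or without EPI knockdown 2 (0.0415). RPL5 and RPL11, which bind the ubiquitin ligase MDM2 when outside the ribosome, had log2 differences of 0.38 (SE 0.16) and 0.23 (SE 0.18) in MES knockdown and -0.36 (SE 0.14) and -0.08 (SE 0.16) in EMT, with no adjusted p under 0.05 in limma. Of the paralog pairs, RPL39L, RPL22, RPL26 and RPS27 had a level, and none of these 4 passed in any comparison. RPS27 was 1 of the 5 genes with a positive EMT log2 difference (0.19, SE 0.19).

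Other genes of protein synthesis give a setting for these values. The 54 mitochondrial ribosomal protein genes tested had a median log2 fold change of 0.24 in MES knockdown and -0.20 in EMT. Of them, 7 had an adjusted p under 0.05 in EMT, all lower (12.3% of all genes), among them MRPS15 (-0.79, SE 0.15, limma adjusted p = 0.00259) and MRPL4 (-1.22, SE 0.41, limma adjusted p = 0.0451), and MRPS23 had one in MES knockdown (0.78, SE 0.18). The 48 EIF and EEF genes had medians of 0.16 and -0.05, with 3 higher and 1 lower in MES knockdown at an adjusted p under 0.05. The 20 genes of ribosome biogenesis had medians of -0.03 and 0.10. Of them, 1 was higher (PES1) and 1 lower (RRP1B) in MES knockdown, and 2 higher and 5 lower in EMT. At the same adjusted p, 2.06% of all genes were higher and 2.1% lower in MES knockdown. In EMT it was 11.6% and 12.3%. Of the 16 regulators tested, 3 were higher in MES knockdown at an adjusted p under 0.05, against 2.06% of all genes, and none lower. EIF4EBP1 is counted both among these regulators and among the EIF and EEF genes, so these lists are not separate.

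Those 3 regulators include LARP1, which binds TOP tracts. LARP1 had 981, 972 and 1063 scaled reads in MES controls and 1717 and 2254 in MES knockdowns, a rise of 0.97 on the log2 scale (SE 0.18, limma adjusted p = 0.0127). In EPI it had 929, 1251 and 1134 in controls and 1404, 1666 and 1389 in knockdowns, also without overlap (log2 difference 0.43, SE 0.16, limma adjusted p = 0.39). EIF4EBP1, a translation repressor that mTOR inactivates, had 932, 1064 and 1044 in MES controls and 2069 and 2442 in knockdowns, a rise of 1.15 (SE 0.22, limma adjusted p = 0.0142). TPT1, whose mRNA also carries a TOP tract, had 118248, 111542 and 107304 in MES controls and 181619 and 170389 in knockdowns, a rise of 0.65 (SE 0.16, limma adjusted p = 0.0447). Like RPL7L1, LARP1 and TPT1 fell short of the cutoff on the fold. How the values of these regulators depend on single libraries is not shown. In EMT, MDM2 rose by 0.49 (SE 0.16, limma adjusted p = 0.0358) and MAX by 0.71 (SE 0.17, limma adjusted p = 0.00782). MDM2 had 7659, 6704 and 8774 scaled reads in EPI controls and 5466, 3859 and 4515 in EPI knockdowns, without overlap (log2 difference -0.75, SE 0.16, limma adjusted p = 0.0671). These gene lists, like the genes named, were chosen with earlier results of these data known.

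Splicing of the ribosomal protein genes was close to invariant, with RPS24 as the exception. Exon inclusion is given as PSI, the percentage of transcripts that include the exon, after correction for the number of junction positions. In EPI controls, 90.8% of the 273 SE events tested in these genes had a PSI of at least 99%, against 57.6% of all 47579 events tested. The median absolute difference in PSI was 0.0144 percentage points in EPI knockdown, 0.0204 in MES knockdown and 0.0138 in EMT, where all events had 0.58, 0.792 and 0.684. These events had a median of 13242 reads per library in the EPI knockdown table, against 220 for all events.

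The 22-base exon of RPS24 was included in 14.3%, 11.6% and 12.9% of transcripts in EPI controls and in 16.6%, 20.0% and 16.8% in EPI knockdowns. It was included in 33.3%, 35.1% and 32.4% in MES controls and in 47.7% and 44.3% in MES knockdowns. No 2 groups overlapped, and the order was EPI control, EPI knockdown, MES control, MES knockdown. Groups did not overlap in 5.66% of all SE events in EPI knockdown, 21.4% in MES knockdown and 10.6% in EMT. Each library had 5886 to 8110 reads on the event. The mean was 12.9% ± 1.31 (SD, n = 3) in EPI controls, 17.8% ± 1.91 (SD, n = 3) in EPI knockdowns, 33.6% ± 1.39 (SD, n = 3) in MES controls and 46.0% ± 2.36 (SD, n = 2) in MES knockdowns.

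**Figure D3:**
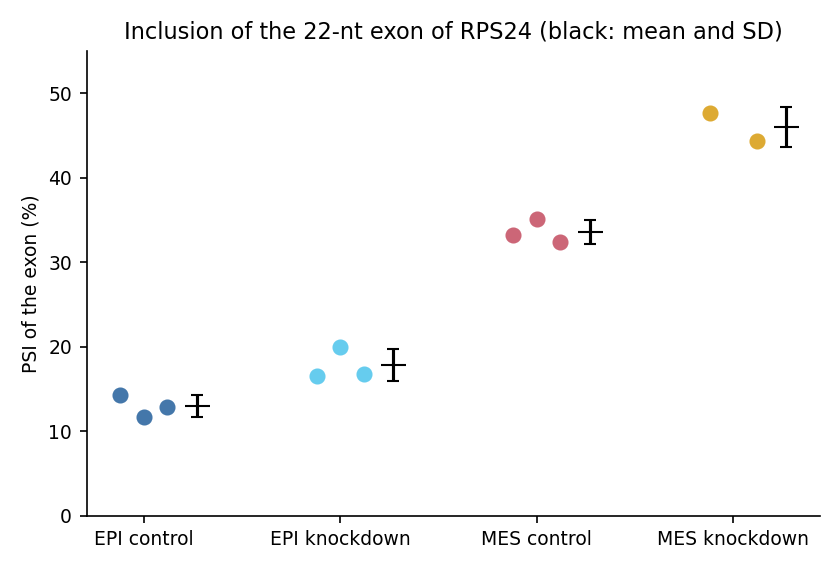
PSI of the 22-base exon of RPS24 (vertical axis, in percent) in each of the 11 libraries by group (horizontal axis), with the group mean and SD in black. The groups do not overlap, from 11.6% to 14.3% in EPI controls up to 44.3% and 47.7% in MES knockdowns.

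In EMT the exon gained 20.6 percentage points, with an adjusted p of 6.94e-64 in the quasi-binomial test. It ranked 14 by p-value of 49330 events, and was the only event of the ribosomal protein genes to pass (adjusted p under 0.05 and a difference of at least 10 percentage points), where 1.35% of all events did. In MES knockdown, with the 2 MES controls of that table, it gained 11.8 points (quasi-binomial adjusted p = 2.13e-07), ranked 6 of 43832 events and again was the only one to pass, where 0.0479% of all events did. With the third MES control the gain was 12.4 points (adjusted p = 1.77e-06). Without MES control 1 the gain was 10.9 points and the adjusted p 0.259, while it stayed under 0.05 without MES control 2 (0.0247), MES knockdown 1 (0.0318) or MES knockdown 2 (3.33e-06). Each of these leaves 1 library in a group, which is then assumed to vary like the other group. In EPI knockdown the exon gained 4.86 points (quasi-binomial adjusted p = 0.00343), which is under the cutoff of 10 points, so that none of the 273 events passed, where 0.0525% of all events did. Its adjusted p rose to 0.721 without EPI control 2, 0.153 without EPI control 3, 0.0986 without EPI knockdown 2 and 0.0566 with a dispersion trend that was not robust.

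The gains in both states were in the direction of EMT. As the knockdown and EMT comparisons share controls, the EMT step was also read between knockdown groups, where the mean PSI was 28.2 points higher in MES than in EPI. On the scale of log2 odds the knockdown effect in MES exceeded that in EPI by 0.21 (SE 0.13, limma adjusted p = 0.95 over 30197 events), so a difference between the states was not detected. The level of RPS24 itself did not pass in any comparison. It had 20435, 20305 and 18423 scaled reads in EPI controls, 17062, 19295 and 17280 in EPI knockdowns, 18033, 16465 and 16792 in MES controls and 19446 and 16760 in MES knockdowns, with log2 differences of -0.14 (SE 0.13), 0.08 (SE 0.14) and -0.21 (SE 0.13) in EPI knockdown, MES knockdown and EMT. The 25-base form is 3 bases longer at its start. Its percentage sets its reads against exon-skipping reads only and leaves out transcripts with the shorter exon, so it is not a share of all transcripts. It was 0.39%, 0.39% and 0.18% in EPI controls and 0.65%, 0.99% and 0.78% in MES controls (quasi-binomial adjusted p = 0.0202). In MES knockdowns it was 1.84% and 1.46%, above both controls of that table (quasi-binomial adjusted p = 0.812). The skipping reads, 6294, 6183 and 5271 in EPI controls and 3855 and 3367 in MES knockdowns, also define the PSI of the shorter exon. The percentages of both forms are therefore not independent, and fewer skipping reads alone raise that of the 25-base form. An 18-base exon at chr10:79797723-79797740 reached at most 0.446% in any library. The RPS24 exons of 66, 210 and 111 bases upstream were included at 99.97% or more.

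**Figure D4:**
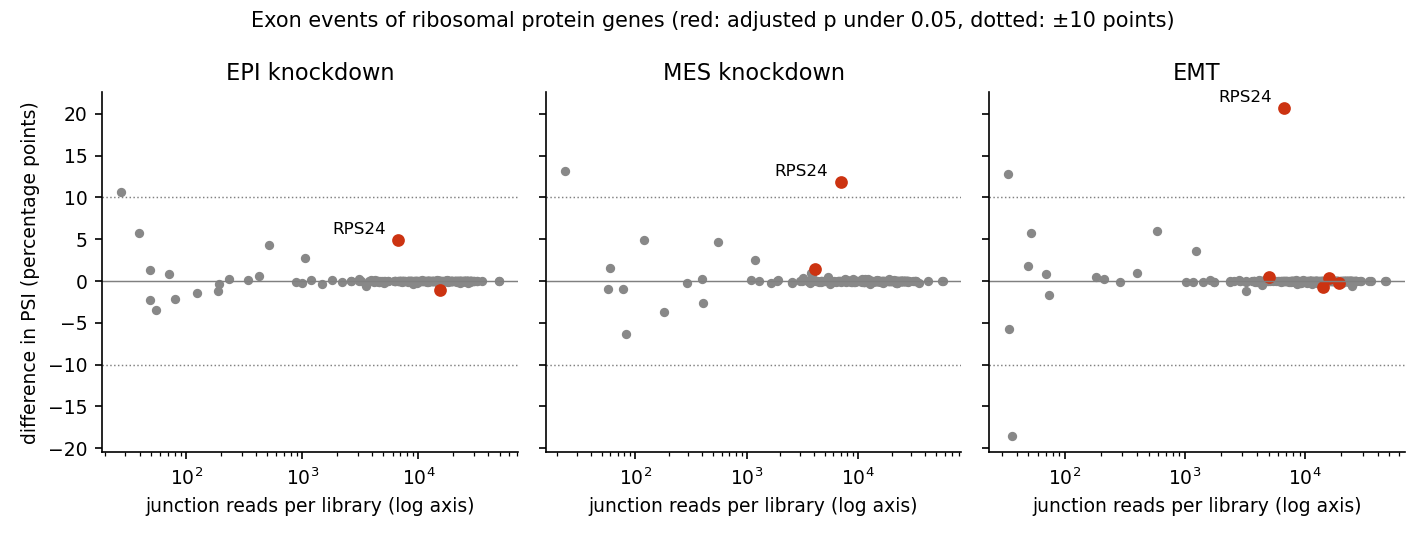
Difference in PSI (vertical axis, percentage points) of each SE event in ribosomal protein genes against its junction reads per library (horizontal axis, log scale) in the 3 comparisons. Red marks an adjusted p under 0.05 and dotted lines mark 10 points, which the RPS24 exon exceeds in MES knockdown (11.8) and EMT (20.6) and other events exceed only with few reads and without passing the test.

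Of the events in ribosomal protein genes, 2 in EPI knockdown, 2 in MES knockdown and 5 in EMT had an adjusted p under 0.05, which 0.0862%, 0.0662% and 2.09% of all events had. Those outside RPS24 differed by 1.42 points or less. In RPS9, an exon of 172 bases at chr19:54710421-54710592 was included in 1.48% and 0.87% of transcripts in MES controls and 3.01% and 2.17% in MES knockdowns (quasi-binomial adjusted p = 0.0133). In RPLP2, inclusion of the exon at chr11:810234-810357 was 98.6%, 98.9% and 98.5% in EPI controls and 98.0%, 97.0% and 97.9% in EPI knockdowns (quasi-binomial adjusted p = 0.0468). In EMT, the exon at chrX:153628805-153628967 of RPL10 fell by 0.686 points (quasi-binomial adjusted p = 5.92e-05), that at chr22:39709639-39709734 of RPL3 fell by 0.296 points (adjusted p = 0.0153), and that at chr1:93298946-93299015 of RPL5 rose by 0.332 points (adjusted p = 0.00376). The events other than the RPS24 exon that differed by over 10 points, 2 of RPL5 (-18.5 in EMT and 13.2 in MES knockdown) and 1 of RPS24 after the 18-base exon (12.8 in EMT and 10.6 in EPI knockdown), had 23.3 to 36.5 reads per library and did not pass.

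None of the 39 RI events, in 27 genes, passed in any comparison, where 0% of RI events did in EPI knockdown, 0.305% in MES knockdown and 0.114% in EMT. At an unadjusted p under 0.05 with a difference of at least 10 points there was none in EPI knockdown and 1 each in MES knockdown and EMT, against 1.25%, 3.47% and 5.77% of all RI events. In RPS9, the event is the intron at chr19:54710331-54710420, just before the 172-base exon, and its percentage sets intron reads against reads of the rare junction into that exon only (59 and 27 reads in MES controls). Most transcripts splice past the exon, with 3865 and 3318 reads, so the value is not the share of transcripts that retain the intron. It was 78.2% and 84.9% in MES controls and 65.7% and 71.8% in MES knockdowns (quasi-binomial adjusted p = 0.2). This event shares that junction's reads with the event of the 172-base exon, so the pair is not independent. In RPL3, the event at chr22:39709316-39710111 spans the 96-base exon above, which was included at 99.8% in EPI controls, and sets intron reads against the same 23, 25 and 20 exon-skipping reads (38, 57 and 36 in MES controls) that define the exon's PSI. It was 86.6%, 84.9% and 85.7% in EPI controls and 75.9%, 65.8% and 77.5% in MES controls (quasi-binomial adjusted p = 0.289), and is neither a share of all transcripts nor a separate observation from the exon. In both cases the groups did not overlap, as was true of 36.1% and 15.5% of all RI events in those comparisons.

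AKAP8 eCLIP peaks lay in few of these genes. In EPI, 10 of the 77 genes with an SE event held a peak (24 peaks), where 20.1% of the 11671 genes with an SE event did. In MES it was 5 of 77 (17 peaks), where 14.3% of genes did. The ribosomal protein genes are short, with a median of 5548 bases against 38162 for all genes with an SE event. Among the 3759 genes of similar length (2801 to 22881 bases, the range of the middle 80% of the 77 genes), 17.7% held a peak in EPI and 11.4% in MES. RPL28, RPL36, RPS9 and RPS19 held a peak in both states, which is 40% of the EPI genes and 80% of the MES genes. These counts take every deposited peak, also those with a log2 ratio under 2 or a −log10 p under 3. The only MES peak of RPS19 had a −log10 p of 1.59. That of RPL13A had a log2 ratio of 1.10 and a −log10 p of 1.10, so neither reached these cutoffs. In RPL36 and RPS19 the MES peak overlapped no EPI peak, so the gene is shared but not the site. RPS24 held none in either state.

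The log2 of immunoprecipitation over input, as the authors deposited it for each merged peak, was highest in EPI in RPL28 (4.82), RPL36 (4.01), RPS23 (3.64), RPS9 (3.58) and RPS19 (3.34). In MES it was highest in RPL28 (3.77), RPS9 (3.70), RPL36 (2.95), RPS19 (2.84) and RPL13A (1.10), which is all 5 genes. The median over peaks in these genes was 3.29 in EPI and 2.83 in MES, against 3.67 and 3.36 for all peaks. Of the peaks in these genes, 7 of 24 in EPI and 13 of 17 in MES overlapped no annotated exon, and none lay on a small nucleolar RNA gene. Each list is a merge of 2 replicates, so peaks have no replicate spread, and some overlap one another. The sequences below are 3 such intron peaks of RPS9 and RPS23, given on the transcribed strand (GRCh37) with GGG runs in capitals.

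RPS9, chr19:54711753-54711832, plus strand: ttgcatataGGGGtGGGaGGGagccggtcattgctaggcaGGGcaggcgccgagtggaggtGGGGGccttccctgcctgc
RPS9, chr19:54712601-54712688, plus strand, overlapped by a MES peak: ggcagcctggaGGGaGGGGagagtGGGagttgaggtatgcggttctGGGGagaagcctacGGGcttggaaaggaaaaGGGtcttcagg
RPS23, chr5:81573984-81574097, minus strand: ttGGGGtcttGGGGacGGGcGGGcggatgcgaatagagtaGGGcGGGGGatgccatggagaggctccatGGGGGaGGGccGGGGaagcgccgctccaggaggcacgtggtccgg

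GGG was present on the transcribed strand in 24 of 24 peaks of these genes in EPI and 15 of 17 in MES, and in 97.3% and 95.9% of all peaks, where CCC was present in 53.7% and 58.8%. All RPS9 peaks lay downstream of its 172-base exon, 4 in EPI and 11 in MES.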

How the data were processed

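Poly(A) RNA from 11 libraries of HMLE/Twist-ER cells was sequenced, and AKAP8 eCLIP was done on 2 immunoprecipitates and 2 inputs per state. The authors aligned reads to GRCh37 with STAR and deposited rMATS tables per comparison with inclusion and skipping junction read counts for each library. They kept uniquely aligned reads only, so reads shared with a pseudogene, of which the annotation lists 1598 for these genes, can be missing. For each eCLIP peak the deposited lists, merged over replicates, give a log2 ratio of immunoprecipitate over input and a −log10 p-value. The deposited columns of the authors' own comparisons (fold changes, p-values and PSI differences), their gene table and the other splicing types were not used.

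Gene levels were SE junction reads summed over the 33107 events in all 3 tables (a read can count in more than 1 event) and divided by median-of-ratios size factors. They were tested as log2(value + 1) with limma 3.58.1 in R 4.3.3 over 11 libraries in 1 fit, for genes with at least 10 scaled reads in at least 2 libraries. Fold changes are on that log2 scale. A gene was called at a Benjamini-Hochberg adjusted p under 0.05 and an absolute log2 fold change over 1. The read fields hold several values per cell, which were split into counts per library, and a planned count model was not used. PSI was tested with a quasi-binomial likelihood-ratio F test with moderated dispersion, for events with at least 20 reads per library on average, and called at an adjusted p under 0.05 and 10 percentage points. Both tests were run on simulated data with known changes, and the outcome is not given here. The MES knockdown PSI table holds 2 of the 3 MES controls. Overlaps of peaks and genes used pandas 2.3.3, and sequences pysam 0.24.0.

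The study describes biological replicates, but the tables number no library, so libraries are named by place. Libraries at the same place in EPI control and EPI knockdown deviated together across genes (r = 0.280, 0.580 and 0.491), so values paired by place are given where they change a call there. Members and lists were chosen with earlier results of these data known. Named genes are those called, the 5 largest rises and falls without overlap per comparison, the 4 highest and lowest genes, and the stalk, MDM2-binding and paralog genes. MRPL4, MRPS15, MRPS23, PES1, RRP1B, LARP1, EIF4EBP1, TPT1, MAX, MDM2 and the exons with small differences were named after their values were seen. Alternatives were other size factors, pseudocounts, filters and cutoffs, pairing, and leaving out each library. Values of a few single genes are not reported here.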

Additional observations from a re-analysis of the deposited data

How the results depend on the processing

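No called gene or exon reversed in direction under an alternative run, and no intron was called. The calls of RPL13 in EMT and of the RPS24 exon in MES knockdown were lost without certain single libraries, as given above. The median over the ribosomal protein genes in EPI knockdown, which rests on no call, ran from -0.23 to 0.08 when 1 library was left out. Without the cutoff on the fold, 1 ribosomal protein gene passed in MES knockdown and 2 in EMT, as did 375 and 2155 of all 9019 genes. Leaving out 1 library gave 0 to 1 genes in EMT, 0 to 1 exons in MES knockdown, and AKAP8 log2 fold changes in MES of -1.41 to -0.93 (limma adjusted p 0.0114 to 0.177). With stricter peak cutoffs, 3 genes held a MES peak in place of 5 and 7 an EPI peak in place of 10, and the share of all genes fell to 11.4% and 18.4%.

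With the replicate block by place in the list, the AKAP8 value in EPI stayed at -1.20 with an adjusted p of 0.00962. The block gave 1, 11 and 18 ribosomal protein genes with an adjusted p under 0.05 in EPI knockdown, MES knockdown and EMT, where the unpaired fit gave 0, 1 and 2, and 352, 1449 and 3518 genes in all. In MES knockdown it gave RPL13A (adjusted p = 0.017), RPL36 (0.0172) and RPL28 (0.0172) an adjusted p under 0.05, and in EMT RPL13A, RPL38, RPLP1 (0.0248) and RPLP2 (0.00243), among others. Same-place libraries deviated together less in those comparisons (r = 0.173 and 0.0235 in MES knockdown, 0.0793, 0.183 and 0.262 in EMT). The highest of these values, 0.262, is near the lowest in EPI knockdown, 0.280. Whether same-place libraries belong together was not tested in any comparison. Without EPI knockdown 2, 13 ribosomal protein genes had an adjusted p under 0.05 in MES knockdown and 10 in EMT, as did 1257 and 2986 of all genes. The cause was not tested. The precision of gene levels is limited by the 2 or 3 libraries per group.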
